A study of Mus musculus with 12 samples.

Results

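The pyruvate dehydrogenase complex, its inhibitory kinases and its activating phosphatases were described by 10 genes: the kinases Pdk1, Pdk2, Pdk3 and Pdk4, the phosphatases Pdp1 and Pdp2, and the catalytic subunits Pdha1, Pdhb, Dlat and Dld. These members were found by symbol among the 32544 genes of the deposited count table, and all 10 were among the 14285 genes tested. RNA had been sequenced from mouse bone marrow-derived macrophages (BMDMs) and from NIH/3T3 cells, a mouse embryonic fibroblast line, in 4 groups of 3 libraries. BMDMs were grown from mouse marrow for 7 days with L929-conditioned medium and RNA was taken 24 h after seeding. The macrophages labelled WT and those labelled PHD2cko both carried LysMCre, which drives Cre in myeloid cells, and the PHD2cko label stands for conditional loss of PHD2, the oxygen sensor that marks HIFα subunits for degradation. Serum-starved 3T3 cells were kept for 72 h in medium conditioned over 24 h by BMDMs of either label, so the label of a 3T3 library names the macrophages that made its medium. The labels mention normal oxygen and hypoxia for the conditioning cultures without tying a library to either, and the sex and age of the marrow donors are not given in the sources used here.

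Pyruvate dehydrogenase sits in the mitochondrial matrix and turns the pyruvate made by glycolysis into acetyl-CoA, the fuel of the TCA cycle. The pyruvate dehydrogenase kinases phosphorylate the E1α subunit, encoded by Pdha1, and switch the complex off, which spares pyruvate for lactate, and the phosphatases reverse this. PDK1 is a known HIF-1 target through which hypoxic cells hold back pyruvate oxidation, whereas PDK4 is known as the kinase induced by fasting, fatty acids and glucocorticoids.

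Total counts ranged from 15516465 to 25199770 between libraries (median 18090343). Egln1, which encodes PHD2, was measured at 55.4 ± 0.574 CPM (counts per 1000000 after TMM normalization, mean ± SD, n = 3) in BMDMs labelled WT and at 69.6 ± 1.77 CPM in those labelled PHD2cko (log2 fold change, log2FC, 0.33, adjusted p = 0.00203, edgeR; SE stands for its standard error). Its count per gene was thus higher, not lower, with the PHD2cko label. The table holds 1 value per gene and none per exon, so loss of part of the gene cannot be read from it. Directions below are therefore those of the libraries labelled PHD2cko. Summed over 23 macrophage markers, BMDM libraries lay between 49100 and 56600 CPM. The 3T3 libraries lay between 320 and 409 CPM in WT medium, where C1qa and Spi1 had at most 3 counts in every library, and between 472 and 1230 CPM in PHD2cko medium. Of these markers, 20 of 23 were called higher in 3T3 cells in PHD2cko medium (median log2FC 5.56), against 8.93% of all genes tested. Of the same 23, 0 were called between the BMDM groups, against 6.73% of all genes tested (1 at an unadjusted p under 0.05 with edgeR, 0 with DESeq2 or limma-voom). Between the BMDM groups, however, the libraries of 17 of the 23 markers did not overlap (31.9% of all genes tested), and with the 6 BMDM libraries fitted alone 5 were called higher and 9 lower (20.6% of all genes called, edgeR). Lyz2, lysozyme, was at 16400 ± 431 CPM in WT and 11600 ± 445 CPM with the PHD2cko label, and Mrc1, the mannose receptor, at 557 ± 10.7 and 807 ± 29.7 CPM. The part of this in the differences of the members was not tested. Without Lgals3, a marker that 3T3 cells also express, the markers put the share of macrophage RNA at 0.0721 to 0.0847% of a 3T3 library in WT medium and at 0.558 to 2.37% in PHD2cko medium, where replicate 2 was at 0.558% and replicates 1 and 3 were at 2.37 and 2.12%. The 15 fibroblast markers summed to between 27800 and 30800 CPM in 3T3 cells in WT medium, to between 33800 and 35300 CPM in PHD2cko medium and to between 3090 and 3250 CPM in BMDMs, where Lum and Thy1 had at most 3 counts in every library. Between the media, 5 of these 15 were called higher and 1 lower, against 8.93% and 6.75% of all genes tested (edgeR). The libraries of 11 did not overlap, against 31.9% of all genes tested. The part of these markers in the 3T3 results was not tested.

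To show the sequence just before the start sites of the kinase genes that differed with the label, the stretches below were read from the RefSeq promoter table (GRCm38.p6), 5′ to 3′ on the strand of the gene. They cover Pdk1 at chr2:71872974-71873223 (plus strand), Pdk3 at chrX:93832202-93832400 (minus strand) and Pdk4 at chr6:5496310-5496528 (minus strand). Capitals mark matches to ACGTG or GCGTG, the 5 bases at the core of the hypoxia response element, on either strand, so that CACGC is GCGTG read on the other strand.
Pdk1: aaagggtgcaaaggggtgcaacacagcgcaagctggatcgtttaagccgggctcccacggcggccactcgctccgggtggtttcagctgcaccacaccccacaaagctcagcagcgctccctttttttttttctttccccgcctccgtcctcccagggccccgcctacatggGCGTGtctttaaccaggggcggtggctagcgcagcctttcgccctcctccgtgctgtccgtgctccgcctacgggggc
Pdk3: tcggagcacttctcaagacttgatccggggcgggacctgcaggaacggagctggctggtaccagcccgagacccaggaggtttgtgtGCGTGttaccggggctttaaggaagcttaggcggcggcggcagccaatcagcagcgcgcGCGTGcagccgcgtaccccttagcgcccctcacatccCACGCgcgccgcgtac
Pdk4: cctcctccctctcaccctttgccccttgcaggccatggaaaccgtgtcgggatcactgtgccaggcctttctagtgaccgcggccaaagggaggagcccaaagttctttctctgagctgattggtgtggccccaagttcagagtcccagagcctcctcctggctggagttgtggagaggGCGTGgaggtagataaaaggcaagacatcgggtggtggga
Within the 300-base windows of the table (250 bases before to 50 after a start), Pdk1 held 2 matches at its first RefSeq start, 78 and 2 bases before it, and none at the other start. Pdk3 held 4 matches, 163, 104, 67 and 53 bases before its start, and Pdk4 held 1, 71 bases before its start. Among 32851 such windows, 43.8% held at least 1 match, 17.3% at least 2 and 2.44% at least 4. Among the other members, Pdha1 held 4 matches, Pdhb 2, and Pdp2 and one of the starts of Pdk2 held 1 each in the form CACGTG, which is also an E-box. Dlat and Dld held none, and Pdp1 had no entry. A match is a description of the letters and not evidence of binding.

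**Figure D1:**
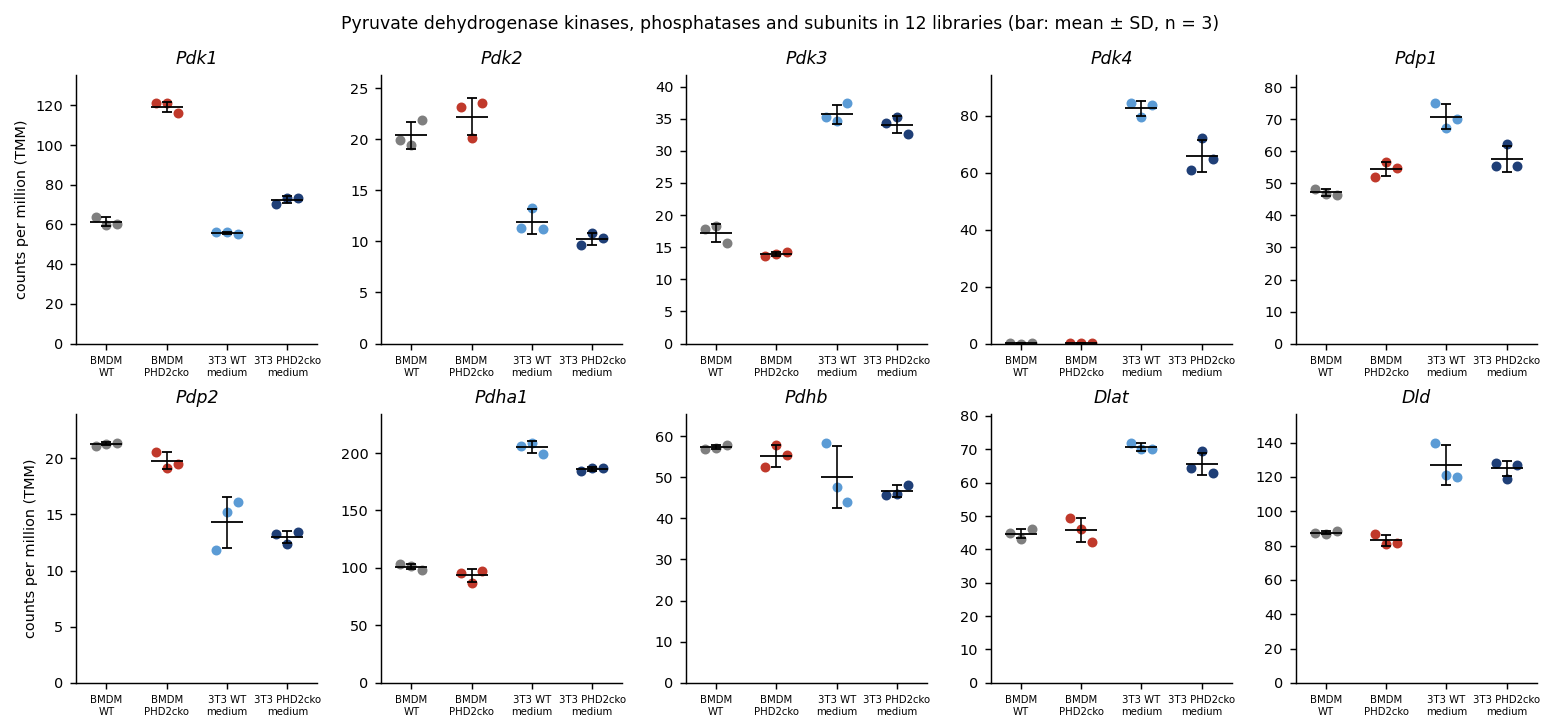
CPM after TMM normalization (linear axes from 0) of the 10 members in each of the 12 libraries, by group, with 1 point per library and the mean ± SD (n = 3) in black. Pdk1 is highest in the 3 BMDM libraries labelled PHD2cko (116 to 121 CPM) and Pdk4 is close to 0 in all 6 BMDM libraries but between 61.0 and 84.3 CPM in 3T3 cells.

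The first comparison asked how the members differed between macrophages labelled PHD2cko and WT. Of the 10 members, 2 were called at an adjusted p under 0.05, against 6.73% of all genes tested. Pdk1 was the 1 member called higher (all genes 3.38%) and Pdk3 was the 1 called lower (all genes 3.35%). The median log2FC over the 9 members with a fold (Pdk4 had none) was -0.05, beside 0.0002 over all genes tested. All p-values from the fits measure the spread between these libraries, which no source says came from separate animals or cultures and which may be technical.

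Pdk1, on chromosome 2 from 71873224 to 71903858 of GRCm38 (plus strand), encodes the kinase isoform that can phosphorylate all regulatory sites of E1α. Its level was 64.0, 59.6 and 60.4 CPM in WT replicates 1, 2 and 3 and 121, 121 and 116 CPM in the libraries labelled PHD2cko. Every library labelled PHD2cko thus lay far above every WT library. Pdk1 rose 1.94-fold, by 0.96 on the log2 scale (SE 0.0419, Benjamini-Hochberg adjusted p = 4.8e-08 by edgeR's quasi-likelihood F). With any single library left out it stayed between 0.94 and 0.99, called each time.

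Pdk3, on chromosome X from 93764607 to 93832201 (minus strand), encodes the kinase isoform known for being least held back by pyruvate. It was at 17.8, 18.3 and 15.6 CPM in WT and at 13.6, 13.9 and 14.2 CPM in the libraries labelled PHD2cko. The groups did not overlap, and the gap between the lowest WT library and the highest PHD2cko library was narrow. Pdk3 was 1.24-fold lower with the PHD2cko label, a log2FC of -0.31 (SE 0.0722, adjusted p = 0.0217, edgeR). The call was lost in 5 of the 12 fits that left out 1 library, those without WT replicate 1 or 2 or without any one of the PHD2cko replicates 1, 2 and 3, where the log2FC was between -0.33 and -0.26 and the adjusted p between 0.0558 and 0.102 (edgeR). It was made in the other 7, and over all alternatives its adjusted p ran from 0.00932 to 0.102.

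The other kinases were not called in macrophages. Pdk2, a widely expressed kinase on chromosome 11 from 95026258 to 95041354, was at 19.9, 19.4 and 21.9 CPM in WT and at 23.1, 20.1 and 23.5 CPM with the PHD2cko label, with overlapping groups (log2FC 0.13, SE 0.0872, adjusted p = 0.509, edgeR). Pdk4, on chromosome 6 from 5483351 to 5496309, had 3, 0 and 3 counts in WT and 3, 2 and 3 counts with the PHD2cko label, at or under the level of 3 counts (0.157 to 0.205 CPM in BMDMs), so no fold is given between the BMDM groups. Pdk4 mRNA was thus near the limit of detection in macrophages of either label and no difference was detectable at this depth.

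The unequal change of the paralogs was also read within each library, where the scaling of libraries cancels. The log2 ratio of Pdk1 to Pdk3 counts was 1.85, 1.70 and 1.95 in WT BMDMs and 3.15, 3.12 and 3.04 in those labelled PHD2cko. The means were 1.83 ± 0.13 and 3.10 ± 0.06 (SD, n = 3 each), a difference of 1.27 (two-sided exact permutation p = 0.1, which is the lowest that 3 against 3 libraries can give). Likewise, the log2 ratio of Pdk1 to Pdha1, the gene of its substrate, was -0.72 ± 0.05 in WT and 0.35 ± 0.11 with the PHD2cko label, a difference of 1.07 (exact permutation p = 0.1). These are ratios of counts, and per kb of exon Pdk1 was below Pdha1 in both, at 7.89 against 27.1 CPM per kb in WT and 15.3 against 25.1 with the PHD2cko label. The ratios and kinase shares made 6 such exact permutation tests, each with p = 0.1 and 0.1 after adjustment. In these same BMDM libraries, Pdk1 was higher and Pdk3 and Pdha1 lower with the PHD2cko label, without overlap. Both ratios in BMDMs therefore had to separate the labels, and their p adds no support to the fits. The same holds for the ratio of Pdk1 to Pdha1 in 3T3 cells.

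Pdp1, on chromosome 4 from 11958184 to 11966452, encodes the main calcium-stimulated phosphatase of the complex. It was at 48.4, 46.6 and 46.5 CPM in WT and at 52.1, 56.6 and 54.7 CPM with the PHD2cko label. The groups did not overlap, but the log2FC of 0.21 (SE 0.0611) missed the threshold at an adjusted p of 0.0649 (edgeR). Pdp1 passed when the 6 BMDM libraries were fitted alone (adjusted p = 0.00469), where 20.6% of all genes passed, and also without 3T3 replicate 1 in WT medium (0.0192) or without 3T3 replicate 2 in PHD2cko medium (0.0328). Over all its alternatives this adjusted p ran from 0.00469 to 0.204. Pdp2, the second phosphatase, on chromosome 8 from 104591451 to 104599026, was at 21.1 to 21.4 CPM in WT and at 19.1 to 20.6 CPM with the PHD2cko label (log2FC -0.10, SE 0.0931, adjusted p = 0.636, edgeR).

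None of the 4 catalytic subunits was called in macrophages with edgeR, with DESeq2 or with limma-voom, and at an unadjusted p under 0.05 only Pdha1 passed. Pdha1, the E1α subunit on chromosome X from 160122209 to 160138413, was at 103, 102 and 98.3 CPM in WT and at 96.0, 87.3 and 97.5 CPM with the PHD2cko label (log2FC -0.11, SE 0.0487, adjusted p = 0.243, edgeR). Pdhb, the E1β subunit on chromosome 14 from 8165996 to 8173025, was at 57.3 ± 0.485 and 55.2 ± 2.71 CPM. Dlat, the E2 subunit that carries the acetyl group, on chromosome 9 from 50634633 to 50659780, was at 44.7 ± 1.39 and 45.8 ± 3.55 CPM. Dld, the E3 subunit shared with other 2-oxoacid dehydrogenases, on chromosome 12 from 31331277 to 31351453, was at 87.5 ± 0.918 and 83.0 ± 3.01 CPM. The log2FC values of these last 3 lay between -0.07 and 0.04 with adjusted p between 0.599 and 0.844 (edgeR). The libraries of the 2 labels did not overlap for 6 of the 10 members, namely Pdk1, Pdk3, Pdp1, Pdp2, Pdha1 and Dld, against 31.9% of all genes tested.

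**Figure D2:**
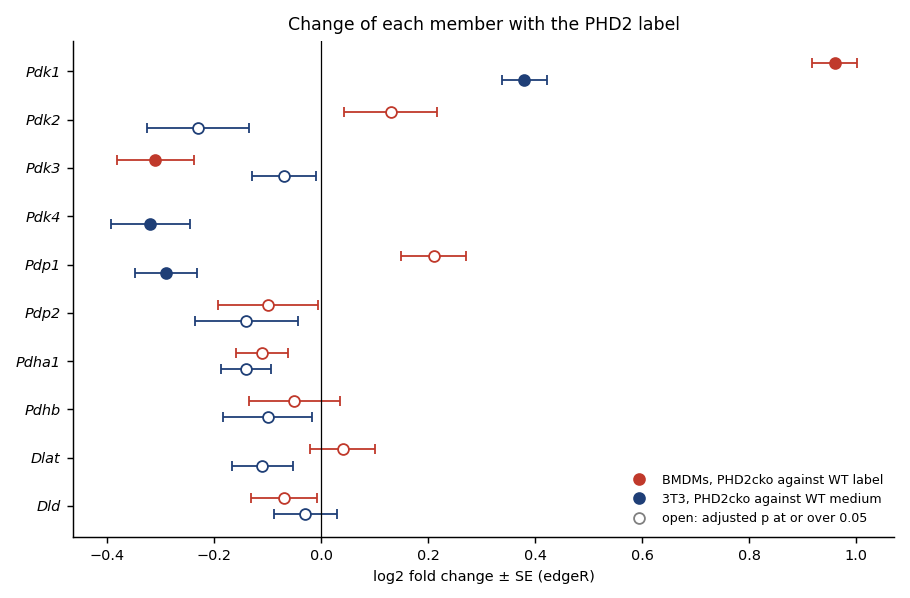
Log2FC ± SE (edgeR) of each member with the PHD2cko label in BMDMs (red) and with PHD2cko medium in 3T3 cells (blue), filled where the adjusted p was under 0.05. Pdk1 lies to the right in both cell types (0.96 and 0.38), Pdk3 to the left in BMDMs (-0.31), and Pdk4 and Pdp1 to the left in 3T3 cells (-0.32 and -0.29); no fold is drawn for Pdk4 in BMDMs.

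The second comparison asked what medium from macrophages labelled PHD2cko changed in fibroblasts. Of the 10 members, 3 were called, against 15.7% of all genes tested. The 1 called higher was again Pdk1 (all genes 8.93%) and the 2 called lower were Pdk4 and Pdp1 (all genes 6.75%). Fold changes were negative for 9 of the 10 members, with a median log2FC of -0.12 beside -0.0046 over all genes tested. As these are bulk libraries, a change in the make-up of the cells and a change in RNA per cell cannot be told apart.

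Pdk1 was at 56.0, 56.0 and 55.1 CPM in 3T3 cells in WT medium and at 70.5, 73.5 and 73.4 CPM in PHD2cko medium. The groups were well apart, and Pdk1 rose 1.30-fold (log2FC 0.38, SE 0.0419, adjusted p = 0.00014, edgeR). Pdk1 is itself abundant in BMDMs, and the macrophage markers moved with the medium, so the estimated macrophage share was subtracted from each 3T3 library. The log2FC of Pdk1 was then 0.38 (adjusted p = 0.000208), and 0.38 (0.000157) with Lgals3 left out of the markers (edgeR).

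Pdk4 had 1657, 2192 and 1584 counts in WT medium, or 84.3, 79.5 and 83.7 CPM, and 1188, 1244 and 1337 counts in PHD2cko medium, or 61.0, 72.0 and 64.8 CPM. Every library in PHD2cko medium lay below every one in WT medium. Pdk4 was 1.25-fold lower (log2FC -0.32, SE 0.0738, adjusted p = 0.0109, edgeR). The call was lost without replicate 1 in PHD2cko medium (log2FC -0.27, adjusted p = 0.0587) and without replicate 3 (-0.31, 0.0538), while the range of its adjusted p over all alternatives was 0.00265 to 0.0587. Pdk4 entered the table of tested genes only through its 3T3 counts. With the macrophage share subtracted the log2FC was -0.29 (adjusted p = 0.0195, edgeR).

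The remaining kinases were not called in fibroblasts. Pdk2 was at 11.3, 13.3 and 11.2 CPM in WT medium and at 9.61, 10.8 and 10.3 CPM in PHD2cko medium (log2FC -0.23, SE 0.0954, adjusted p = 0.123, edgeR). Pdk3 was at 35.2, 34.6 and 37.4 CPM against 34.4, 35.2 and 32.6 CPM, with overlapping groups (log2FC -0.07, SE 0.0597, adjusted p = 0.497, edgeR). Beside the rise of Pdk1, Pdk3 was thus the kinase called lower in macrophages, which hold nearly no Pdk4, and Pdk4 the one called lower in fibroblasts. Within libraries, the log2 ratio of Pdk1 to Pdk3 was 0.64 ± 0.07 in WT medium and 1.09 ± 0.07 in PHD2cko medium, a difference of 0.45 (exact permutation p = 0.1). The log2 ratio of Pdk1 to Pdha1 was -1.88 ± 0.02 and -1.36 ± 0.02, a difference of 0.52 (exact permutation p = 0.1).

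Pdp1 fell in 3T3 cells, from 75.0, 67.2 and 70.1 CPM in WT medium to 55.3, 62.3 and 55.5 CPM in PHD2cko medium. All 3 libraries in PHD2cko medium lay below the 3 in WT medium, and replicate 2, the library with the least macrophage marker RNA in that medium, was the highest of the 3 for both Pdp1 and Pdk4. Without it the log2FC was -0.35 for Pdp1 and -0.39 for Pdk4, both called. With all libraries the level of Pdp1 was 1.23-fold lower (log2FC -0.29, SE 0.0582, adjusted p = 0.00464, edgeR). It was called with each library left out in turn, with log2FC values between -0.35 and -0.23. Pdp2 was at 11.8, 15.2 and 16.1 CPM against 13.3, 12.4 and 13.4 CPM, with overlapping groups (log2FC -0.14, SE 0.0966, adjusted p = 0.37, edgeR). WT medium replicate 1 was its lowest library, and without that library Pdp2 passed at a log2FC of -0.24 (adjusted p = 0.0181, edgeR, range over all alternatives 0.0181 to 0.72).

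No catalytic subunit was called in fibroblasts with edgeR, although all 4 log2FC values were negative, and 1 was called with DESeq2 and with limma-voom. That subunit was Pdha1, at 206, 209 and 199 CPM in WT medium and 184, 187 and 187 CPM in PHD2cko medium. Its groups did not overlap and its log2FC was -0.14 (SE 0.0467, adjusted p = 0.0628, edgeR). Dlat was at 70.7 ± 1.11 and 65.6 ± 3.40 CPM (adjusted p = 0.233), Pdhb at 50.0 ± 7.53 and 46.6 ± 1.44 CPM (adjusted p = 0.466), and Dld at 127 ± 11.4 and 125 ± 4.59 CPM (adjusted p = 0.8, all edgeR). The libraries did not overlap between media for 6 of the 10 members, Pdk1, Pdk2, Pdk4, Pdp1, Pdha1 and Dlat, against 31.9% of all genes tested.

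Whether the label acted unequally in the 2 cell types was tested directly, as the log2FC in 3T3 cells minus that in BMDMs. Of the 9 members with a fold in both, 2 were called, against 12.3% of all genes tested. Pdk1 rose less in 3T3 cells than in BMDMs, by a difference of -0.58 (SE 0.0591, adjusted p = 0.00013, edgeR). Pdp1 differed by -0.50 (SE 0.0844, adjusted p = 0.00176, edgeR), with a lower level in PHD2cko medium and a higher, uncalled one in BMDMs labelled PHD2cko. For Pdk3, called in BMDMs alone, the difference of 0.24 was not called (SE 0.0937, adjusted p = 0.123, edgeR), so its change was not shown to differ between the cell types. Without WT BMDM replicate 3 it was called (0.31, adjusted p = 0.0448, edgeR, range over all alternatives 0.0448 to 0.272). Pdk2, with fold changes of opposite sign, differed by -0.36 (SE 0.129, adjusted p = 0.095, edgeR).

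The members were also set side by side between WT BMDMs and 3T3 cells in WT medium, groups that differ in cell type, origin and medium together. Leaving aside Pdk4, which was tested only through its 3T3 counts, the 9 others were called, against 85.3% of all genes tested, so a call by itself says little here. Pdk4 is given as counts with no test: 5433 counts over the 3T3 libraries in WT medium stood against 6 counts over the WT BMDM libraries, a ratio of 799 per count sequenced, on total counts with no TMM factor (95% exact interval 367 to 2180, counting error only). In the groups labelled PHD2cko, 3769 counts stood against 8, a ratio of 506 (257 to 1170). Pdk3 was 2.07-fold and Pdha1 2.03-fold higher in 3T3 cells (log2FC values of BMDM against 3T3 -1.05 and -1.02, SEs 0.0648 and 0.0479, adjusted p = 3.3e-09 and 1.8e-10, edgeR). Pdp1 (-0.59), Dlat (-0.66) and Dld (-0.54) were also higher in 3T3 cells. Pdk2 (0.76, adjusted p = 3.2e-06) and Pdp2 (0.56, adjusted p = 8.1e-05) were higher in BMDMs. Pdk1 (0.14, adjusted p = 0.00824) and Pdhb (0.20, adjusted p = 0.0412, with overlapping libraries) differed by less, and both calls were lost when every library had to hold 10 counts and when no filter was set. The call of Pdhb was also lost with DESeq2 (adjusted p = 0.0522), with the replicate number as a block (0.0541, edgeR), on the libraries of these groups alone (0.0927, edgeR) and in 8 of the 12 fits that left out 1 library, with adjusted p from 0.000135 to 0.186 over all alternatives.

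In order of level, Pdk1 ran from BMDMs labelled PHD2cko over 3T3 cells in PHD2cko medium and WT BMDMs to 3T3 cells in WT medium, with no overlap between neighbours. Pdha1 ran from 3T3 cells in WT medium over those in PHD2cko medium and WT BMDMs to BMDMs labelled PHD2cko, also with no overlap. For Pdk4 the 2 BMDM groups overlapped at the bottom, for Pdk3 the 2 3T3 groups overlapped at the top, and for Pdk2 the 2 BMDM groups overlapped at the top. For Pdp1, 3T3 cells in PHD2cko medium and BMDMs labelled PHD2cko overlapped. Pdhb overlapped between all neighbouring groups.

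Because the genes differ in length, levels were compared between members per kb of exon. In WT BMDMs, Pdha1 was at 27.1 ± 0.626 CPM per kb, Dld at 23.7 ± 0.249, Pdhb at 14.8 ± 0.126 and Dlat at 9.14 ± 0.284. In 3T3 cells in WT medium, they were at 54.9 ± 1.35, 34.5 ± 3.10, 13.0 ± 1.95 and 14.5 ± 0.228 CPM per kb. The phosphatase Pdp1 was above Pdp2 in both, at 10.5 ± 0.245 against 3.73 ± 0.024 CPM per kb in WT BMDMs and at 15.7 ± 0.868 against 2.52 ± 0.401 in 3T3 cells. These levels depend on the length used: on the longest coding transcript, Pdhb was at 37.9 CPM per kb in WT BMDMs, above Pdha1 at 35.5.

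The make-up of the kinase mRNA per kb differed between the cell types and with the label. In WT BMDMs, Pdk1 held 37.3 ± 0.832% of it, Pdk3 31.9 ± 2.46%, Pdk2 30.6 ± 2.30% and Pdk4 0.211 ± 0.147% (SD, n = 3). With the PHD2cko label, Pdk1 held 55.0 ± 1.63%, Pdk2 25.3 ± 1.73% and Pdk3 19.5 ± 0.540%. The share of Pdk1 was therefore 17.7 percentage points higher, with 36.6 to 38.2% in WT and 53.4 to 56.7% in PHD2cko libraries (exact permutation p = 0.1). In 3T3 cells in WT medium Pdk4 was the main kinase transcript, at 48.5 ± 0.93%, ahead of Pdk3 at 28.8 ± 0.805%, Pdk1 at 14.8 ± 0.349% and Pdk2 at 7.83 ± 0.916%. In PHD2cko medium, Pdk4 held 42.0 ± 1.51% and Pdk1 20.9 ± 0.742%, 6.09 percentage points more than in WT medium (exact permutation p = 0.1). On the longest coding transcript the order of Pdk2 and Pdk3 in WT BMDMs turned, at 31.2 and 28.0%, while the rise of the Pdk1 share stayed.

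**Figure D3:**
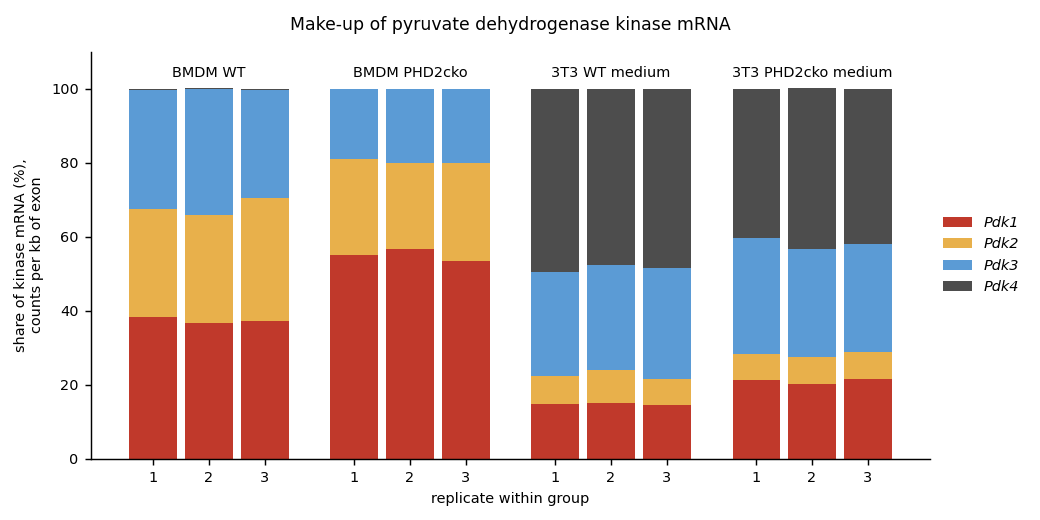
Share of each kinase gene in the summed counts per kb of exon of Pdk1, Pdk2, Pdk3 and Pdk4, 1 stacked bar per library, with axis in percent from 0 to 100. Pdk1 grows from 36.6 to 38.2% in WT BMDMs to 53.4 to 56.7% with the PHD2cko label, and Pdk4, hardly visible in BMDMs, is the largest block in 3T3 cells.

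Reads of the members could be told from each other, since no stretch of 31 bases was common to any pair of them in the GENCODE transcripts. Pdk2, Pdk3 and Dlat shared no such stretch with any other gene, and Pdk1 shared 0.641% and Pdk4 1.84% of theirs. Pdha1 shared 15.8%, mostly with Map3k15, whose exons overlap it on the other strand and which had 143 to 197 counts in BMDMs and 21 to 40 in 3T3 cells. Whether the counting used strand is not given in the sources used here. Pdhb shared 17.9%, mostly with Gm6123, which had 1 to 3 counts in BMDMs and 42 to 78 in 3T3 cells, so the values of Pdha1 and Pdhb carry that uncertainty.

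The genes whose log2 CPM ran most like a kinase over the 12 libraries were, for Pdk1, Bnip3 (Pearson r = 0.97), a mitochondrial mitophagy and cell death gene, Tmx4 (0.955) and Ighg2b (0.945, at a mean of only 0.308 CPM). For Pdk2 they included Rsu1 (0.989) and Ubald1 (0.987). For Pdk3 they were Mmp14, Ssr3 and Tmem39a (0.996 each), and for Pdk4 Adamts1, Sspn and Ece2 (0.999 each). The 12 libraries fall into 4 groups and 2 cell types, and these coefficients follow the differences between groups. Over the 6 BMDM libraries alone, Pdk1 ran most like Specc1, Cd36 and Cmtm3 (0.999 each) and Pdk3 most like Coro1b (0.995), Itga4 (0.994) and Tgfbr2 (0.993), again across the 2 labels.

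The genes of 5 lists around the complex were read against the 6.73% of all genes tested that were called between the macrophage labels (3.38% higher and 3.35% lower). Of 14 genes of pyruvate supply and other fates, 3 were called higher and 0 lower with edgeR, with a median log2FC of 0.00. DESeq2 called 2 higher and 1 lower, the lower being Ldhb, the other lactate dehydrogenase subunit, and with the 6 BMDM libraries fitted alone 3 were called higher and 2 lower, Ldhb and Mpc1 (edgeR, 20.6% of all genes called). Ldha, the lactate dehydrogenase subunit that favours lactate, was at 312, 306 and 311 CPM in WT and at 475, 440 and 458 CPM with the PHD2cko label, with no overlap (log2FC 0.56, adjusted p = 0.00014, edgeR). Slc16a3, the lactate exporter MCT4, was at 44.9, 40.0 and 42.3 CPM against 95.4, 88.4 and 86.9 CPM (log2FC 1.09, adjusted p = 0.00935, edgeR), a call that DESeq2 did not make (adjusted p = 0.117, range over all alternatives 3.15e-09 to 0.117). Pkm, the pyruvate kinase, rose by 0.29 on the log2 scale (adjusted p = 0.0429, edgeR). With single libraries left out in turn, the call of Ldha was made in all 12 fits, that of Pkm was lost in 7 and that of Slc16a3 in 3.

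Of 11 tested genes for assembly and cofactors of the complex, 0 were called in macrophages with edgeR, DESeq2 or limma-voom, and 0 passed at an unadjusted p under 0.05. Of 11 related 2-oxoacid dehydrogenase genes, 1 was called, the lower Dhtkd1 (log2FC -0.71, adjusted p = 0.0109, edgeR), which encodes an E1 enzyme of lysine breakdown. Of 15 TCA cycle genes, 1 was called, the lower Cs, citrate synthase, which takes up the acetyl-CoA (log2FC -0.19, adjusted p = 0.0229, edgeR). Among 12 tested regulators known to act on PDK genes, Hif1a (-0.22, adjusted p = 0.00706) and Ppard (-0.18, adjusted p = 0.0445) were called lower and Pparg (0.37, adjusted p = 0.0298) higher (log2FC values, edgeR). Hif1a mRNA was thus lower where Pdk1 was higher, and HIF protein was not measured in these libraries. Of the calls in these lists, that of Hif1a was made in all 12 fits that left out a library, while Dhtkd1 lost its call in 2, Cs in 5, Pparg in 6 and Ppard in 11. Ppard was also lost with the replicate number as a block (adjusted p = 0.0775) and with no filter (0.0946), and Cs with no filter (0.0603, all edgeR). With the 6 BMDM libraries fitted alone, 4 of the 15 TCA cycle genes were called lower (Cs, Fh1, Idh3b and Sdhb), 2 of 10 related dehydrogenases (Dhtkd1 and Ogdh) and 4 of 11 regulators (Arnt, Hif1a, Nr3c1 and Ppard), with Pparg again higher, against the 20.6% of all genes called in that fit (edgeR).

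In 3T3 cells, where 15.7% of all genes tested were called (8.93% higher and 6.75% lower), 1 of 15 TCA cycle genes was called, the lower Cs (log2FC -0.18, adjusted p = 0.018, edgeR). Of the 11 genes for assembly and cofactors, 1 was called, the higher Pdpr, the regulatory subunit of the phosphatase (0.50, adjusted p = 0.0223, edgeR). Of the 11 related dehydrogenase genes, 1 was called, the lower Ogdhl (-0.30, adjusted p = 0.00846, edgeR). Among the 12 tested regulators, Hif1a was called higher (0.14, adjusted p = 0.0354, edgeR). Pparg, which entered the tested genes only through its BMDM counts, was called higher too and is described below. Ogdhl was called in all 12 fits that left out a library, while Cs and Pdpr lost their calls in 2 each and Hif1a in 10. Fitted on the 3T3 libraries alone, Ogdhl, Cs, Pdpr and Hif1a were not called (adjusted p = 0.0513, 0.0762, 0.0977 and 0.128, edgeR). With no filter Cs (0.0574) and Hif1a (0.108) were lost, as was Hif1a with the replicate number as a block (0.0665, edgeR).

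Of the 14 genes of pyruvate supply and other fates, 3 were called higher and 2 lower in 3T3 cells, against 8.93% and 6.75% of all genes tested. Slc16a1, the transporter MCT1, was lower (log2FC -0.23, adjusted p = 0.0045), as was Mpc1, a subunit of the mitochondrial pyruvate carrier (-0.20, adjusted p = 0.0332), and Me2, a mitochondrial malic enzyme, was higher (0.28, adjusted p = 0.0253, edgeR). With single libraries left out, Slc16a1 was called in all 12 fits, Me2 was lost in 3 and Mpc1 in 7. On the 3T3 libraries alone Me2, Mpc1 and Slc16a7 were not called (adjusted p = 0.0853, 0.163 and 0.0963), nor was Mpc1 with no filter (0.0623, edgeR). Slc16a3 was at 1.27, 1.52 and 0.581 CPM in WT medium and at 12.8, 3.76 and 12.9 CPM in PHD2cko medium (log2FC 3.08, adjusted p = 0.00054, edgeR). BMDMs express Slc16a3, and with the macrophage share subtracted its log2FC was 3.23 (adjusted p = 0.00123), or 2.98 (0.000806) with Lgals3 left out of the markers (edgeR). Slc16a7, the transporter MCT2, had 3, 8 and 11 counts in WT medium and 40, 8 and 36 in PHD2cko medium (log2FC 2.11, adjusted p = 0.0105, edgeR), and the regulator Pparg had 0, 1 and 3 against 11, 2 and 8 counts (2.47, adjusted p = 0.0267, edgeR). Pparg passed the filter only through its BMDM counts and was not tested on the 3T3 libraries alone, so its call here is no support. Slc16a7 and Pparg are far more abundant in BMDMs, their libraries overlapped, and with the macrophage share subtracted both log2FC values were 0.00. With Lgals3 left out of the markers as well, they were -2.72 and -2.44 (adjusted p = 0.05 and 0.305, edgeR).

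**Figure D4:**
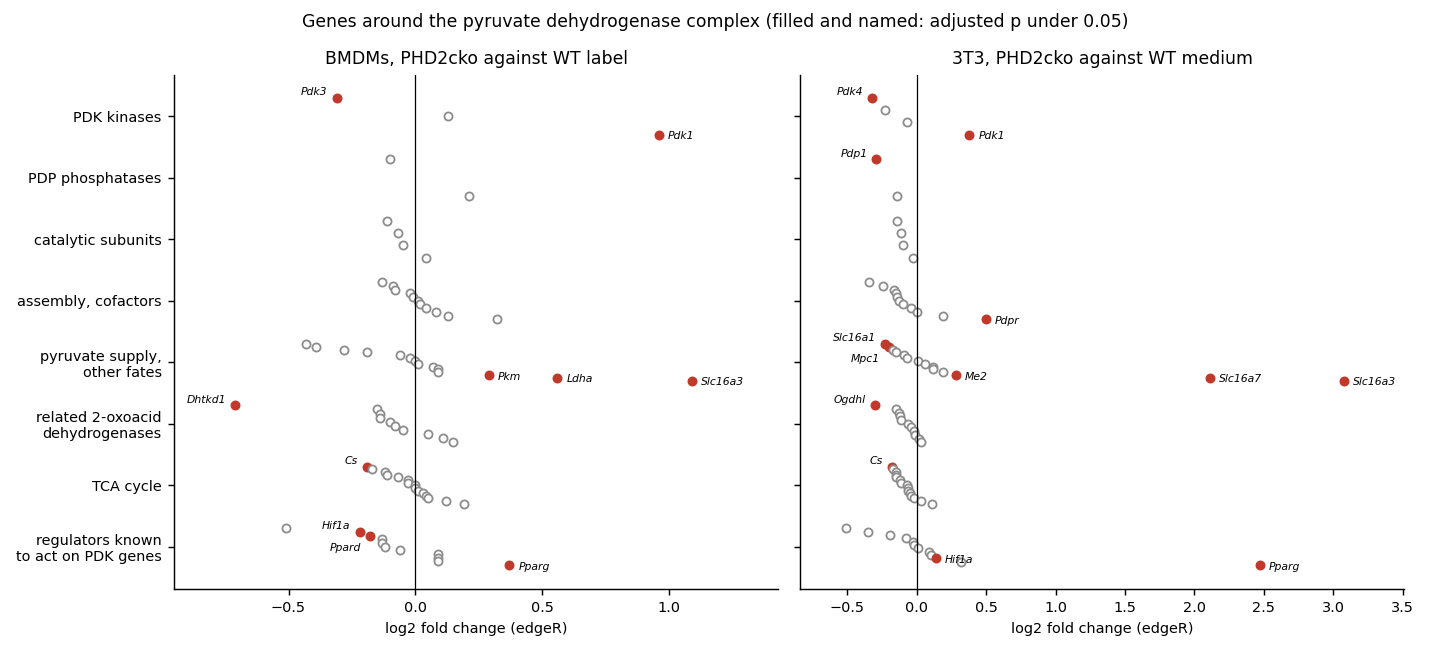
Log2FC (edgeR) of the members and of 5 lists of genes around the complex in BMDMs (left) and 3T3 cells (right, on a wider scale), 1 point per gene, filled and named where the adjusted p was under 0.05; genes at a mean of at most 3 counts in both groups are left out. Most points lie close to 0, Pdk1, Ldha and Slc16a3 lie to the right in BMDMs, and the highest points in 3T3 cells are Slc16a3, Pparg and Slc16a7.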

How the data were processed

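The authors aligned single reads of polyA RNA with Kallisto to the mouse genome GRCm38 (per the submitters' processing notes; the version and annotation are not given in the sources used here) and deposited estimated counts per gene, as whole numbers with no normalization, for 32544 genes in 12 libraries. All columns were matched to a sample by title (0 were not). Genes were kept by filterByExpr (14285 kept, 18259 left out), normalized by TMM and fitted over all 12 libraries with edgeR 4.0.16 (R 4.3.3, quasi-likelihood test, two-sided, Benjamini-Hochberg adjustment over all genes kept, threshold 0.05). Standard errors are the log2 fold change over the root of F. The study's own fit, limma-voom (limma 3.58.1), and DESeq2 1.42.0 were alternatives, beside DESeq2's size factors, a filter of 10 counts in every library, no filter, only the groups compared, the replicate number as a block, leaving out each library, and subtracting macrophage RNA (each 3T3 library's marker share times the mean BMDM profile of its label).

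Ratios and shares used a pseudocount of 0.5 (alternative 2) and exact permutation tests over libraries (SciPy 1.17.1). Lengths and positions come from GENCODE on GRCm38, promoters from RefSeq. All 10 members, Egln1, list genes past the threshold in a label comparison and, for each kinase, genes among the 3 with the highest correlation are named. Some items of the study and of these lists are not reported here, and counts of lists leave them out. The members and the lists were chosen with earlier results of these data known. The subtraction without Lgals3 was chosen after seeing the data. The code was tested on simulated counts. Counting intervals and floors cover counting error only; 3 counts correspond to 0.109 to 0.205 CPM after TMM.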

Additional observations from a re-analysis of the deposited data

Results flagged for a closer look

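Of the members and the genes of the 5 lists around the complex, 10 differed between the cell types in their log2 change with the PHD2 label (the value in 3T3 cells minus that in BMDMs, tested as an interaction with edgeR at an adjusted p under 0.05, 12.3% of all genes tested). They were 2 of the 9 members with a fold, 4 of 14 genes of pyruvate supply, 1 of 11 related dehydrogenases, 1 of 15 TCA cycle genes, 2 of 12 regulators and 0 of 11 assembly and cofactor genes. Among the members these were Pdk1 at -0.58 and Pdp1 at -0.50, described above. Of the genes around the complex, Ldha differed by -0.44, Slc16a1 by -0.32, Dhtkd1 by 0.74, Fh1, the fumarase of the TCA cycle, by 0.28, Hif1a by 0.35 and Ppard by 0.27. Slc16a3 differed by 1.99 and Slc16a7 by 2.17, both far more abundant in BMDMs than in 3T3 cells, and their change in 3T3 cells came with more macrophage marker RNA. The calls of Pdk1, Pdp1, Ldha and Hif1a were made under every alternative run. Of the 12 fits that left out 1 library, Fh1 lost its call in 7, Slc16a1 and Ppard in 6, Dhtkd1 in 5, Slc16a3 in 4 and Slc16a7 in 1. Slc16a1 was also not called with DESeq2 (adjusted p = 0.0781), limma-voom (0.0627), no filter (0.0662, edgeR) or macrophage RNA subtracted (0.0540, edgeR). Slc16a3 was not called with limma-voom (0.104), Dhtkd1 with the replicate number as a block (0.0522, edgeR) or Ppard with no filter (0.0516, edgeR), and with macrophage RNA subtracted the interaction of Slc16a7 was 0.07 (adjusted p = 1, edgeR). That of Slc16a3 was then 2.14 (adjusted p = 0.03), or 1.90 (0.03) with Lgals3 left out of the markers, and was still called (edgeR). Outside these lists, 21 of the 23 macrophage markers and 0 of the 15 fibroblast markers were called in the interaction (edgeR). Egln1 was called too, but not in 8 of the 12 fits that left out 1 library, with no filter or with the replicate number as a block. With 3 libraries a group, no library was tested for lying apart from the others of its group.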

How the results depend on the processing

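Pdk1 kept its call in both label comparisons and in the interaction under every alternative. The replicate block used numbers that the libraries share by name alone (correlation of deviations within 18 same-numbered pairs from -0.113 to 0.0478). It called 2 members in BMDMs, 3 in 3T3 cells and 2 in the interaction, as without it. Of all genes tested, the block called 5.71, 13.7 and 10.8%. Between WT BMDMs and 3T3 cells, with Pdk4 set aside, it lost the call of Pdhb alone (84.9% of all genes called). Leaving out single libraries gave 1 to 3 members called in BMDMs, 2 to 4 in 3T3 cells, 9 to 10 between cell types and 2 to 3 in the interaction. These counts between cell types include Pdk4, whose call there is set aside above. The same fits called 82.3 to 85.9% of all genes between cell types. In the interaction they called 1272 to 2316 genes (1756 with all 12 libraries). Other alternatives gave 2 to 3, 2 to 4, 7 to 10 and 2 members in the same order. They called 3.86 to 20.6% of all genes in BMDMs, 912 to 2428 genes in 3T3 cells and 6.76 to 12.9% in the interaction. The 7 came with 10 counts required in every library, where 85.1% of all genes were called. With 10 counts required in every library, Pdk4 could not be tested. Fitting only the groups compared, 2534 genes were called in BMDMs (961 with all 12 libraries) and 912 in 3T3 cells (2240). Without 3T3 replicate 1 in WT medium, 1889 genes (13.0%) were called in BMDMs, and without any one of the 6 BMDM libraries 527 to 664 (3.63 to 4.57%, against 6.73%). In 3T3 cells 1319 genes (9.09%) were called without replicate 1 in PHD2cko medium and 1260 (8.7%) without replicate 3, against 15.7%, while 2757 (19.0%) were called without replicate 1 in WT medium. With no filter the shares were 3.86% in BMDMs and 8.57% in 3T3 cells.
Uncalled log2 fold changes that changed sign with 1 library left out ran from -0.02 to 0.09 (Dlat, BMDMs), -0.18 to 0.04 (Pdhb, 3T3) and -0.07 to 0.07 (Dld, 3T3), and in the interaction from -0.13 to 0.04 (Pdp2), -0.08 to 0.00 (Pdha1) and -0.13 to 0.10 (Pdhb). With macrophage RNA subtracted, the interaction of Pdha1 was 0.00, and Slc16a7 and Pparg were 0.00 in 3T3 cells. With Lgals3 left out of the markers they were -2.72 and -2.44, and the interaction of Slc16a7 was -2.65. The subtraction takes out a mean BMDM profile and leaves few counts of both genes. Depth limits Pdk4 in BMDMs, with at most 3 counts a library.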
